A study of Anguilla anguilla with 12 samples.

Results

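The microRNAs (miRNAs) miR-21, miR-22 and miR-26 of the eel liver were examined here as 13 predicted precursors among the 820 in the deposited list. A precursor was included when the zebrafish miRNA listed for its seed (bases 2 to 8 of the mature sequence) was named miR-21, miR-22 or miR-26. This gave 3 entries for miR-21, 4 for miR-22a-3p and 6 for miR-26a-5p, on 13 different scaffolds. The families were chosen by their high mature read counts in this list, so their abundance is a description and was not tested.

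The livers came from 12 European eels (Anguilla anguilla) in the yellow stage, in which the fish feed and grow before they mature. The study set 6 eels from Arcachon Bay, described as a pristine site, against 6 from the Gironde Estuary, described as polluted. The deposited counts have no column for an eel or a site, so each value is a single number taken as pooled over libraries. No spread between eels and no difference between sites could be computed, and the depth of single libraries is unknown. The liver label was checked by miRNA names: the hepatocyte list (miR-122, miR-192 and miR-194) held 66.5% of mature reads, and lists for endothelial, smooth muscle or fibroblast, red and white blood cells held between 0.156% and 1.26%. Most of the hepatocyte share was miR-122 (64.8%), with miR-192 at 1.52% and miR-194 at 0.169%. In the white blood cell list, miR-146 held 1.25%, nearly all of that list. Within those lists miR-142, miR-144, miR-145, miR-214 and miR-223 had no entry under their names. Names go by the seed, so an entry with a shifted start would be missed, and absence of these miRNAs is not shown. Which liver cells gave the reads of miR-21, miR-22 and miR-26, which are known from many cell types, cannot be told from pooled tissue. Only liver was sampled, so the files do not show how widely the 3 families are expressed.

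A miRNA is cut from a hairpin. The enzyme Drosha frees the hairpin in the nucleus and Dicer removes its loop, which leaves a duplex of the mature arm and the star arm. One strand, usually the mature one, is loaded into an Argonaute protein and guides it to messenger RNAs that match the seed. miR-21 is known in mammals for its rise in injured, fibrotic and cancerous tissue. miR-22 is known in mammals from heart muscle growth and from liver lipid metabolism. miR-26 is known for restraining cell growth, and in mammals its genes lie in introns of the CTDSP phosphatase genes.

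The 13 entries carried 7 distinct mature sequences and 3 seeds. All 7 are shown with the seed in capitals, because sequences within a family share it and differ behind it.
miR-21, scaffolds 269111 and 1436: uAGCUUAUcagacugguguugg
miR-21, scaffold 165: uAGCUUAUcuggcuggug
miR-22a-3p, scaffold 198368: aAGCUGCCagcugaagaacugc
miR-22a-3p, scaffold 22273: aAGCUGCCagcugaagaacugu
miR-22a-3p, scaffolds 191 and 508: aAGCUGCCagcugaggaccugu
miR-26a-5p, scaffolds 330540, 7999, 99, 17 and 1379: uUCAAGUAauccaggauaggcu
miR-26a-5p, scaffold 4624: uUCAAGUAgcuggaccuauaga
Outside the 13, 0 entries had one of these seeds in the mature or the star sequence. For the mature sequence this largely follows from the choice of entries, since the listed zebrafish name goes by the seed. Likewise 0 entries outside the 13 shared 16 consecutive bases with a mature or star sequence of the 13, on either strand.

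The leading 4 of these mature sequences held nearly all reads of the families and took ranks 2, 4, 5 and 6 among the 676 distinct mature sequences of the list. The leading miR-21 sequence had 13911397 mature reads. The miR-22a-3p sequence ending in C had 9529100 and the one ending in U had 7237252. The leading miR-26a-5p sequence had 6306190. Ranks 1 and 3 belonged to miR-122 and a let-7 sequence. The other 3 sequences had 24550 reads (miR-22a-3p, rank 71), 171 reads (miR-21, rank 256) and 75 reads (miR-26a-5p, rank 322).

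With each distinct mature sequence counted once, the families together held 37008735 mature reads or 13.6% of the list, and 38.6% of the reads outside miR-122. This sum adds the miR-22a-3p sequences ending in C and in U in full. A read that stops before the last base can be counted in both, so the sum and these shares can be too high. miR-22 held 6.16% (exact binomial 95% interval 6.157% to 6.163%), miR-21 held 5.10% (5.101% to 5.106%) and miR-26 held 2.31% (2.312% to 2.315%). These intervals cover counting error only, not the spread between eels. The place of miR-22 above miR-21 depended on how its end variants were counted. With the sequences ending in C and in U counted once, at the higher count, miR-22 held 3.60%, below miR-21. The lower count was also left out of the list's total for this value. For miR-26 the number of copies mattered most: summed over all entries its share was 8.10%, since the same reads were listed at 5 precursors.

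**Figure D1:**
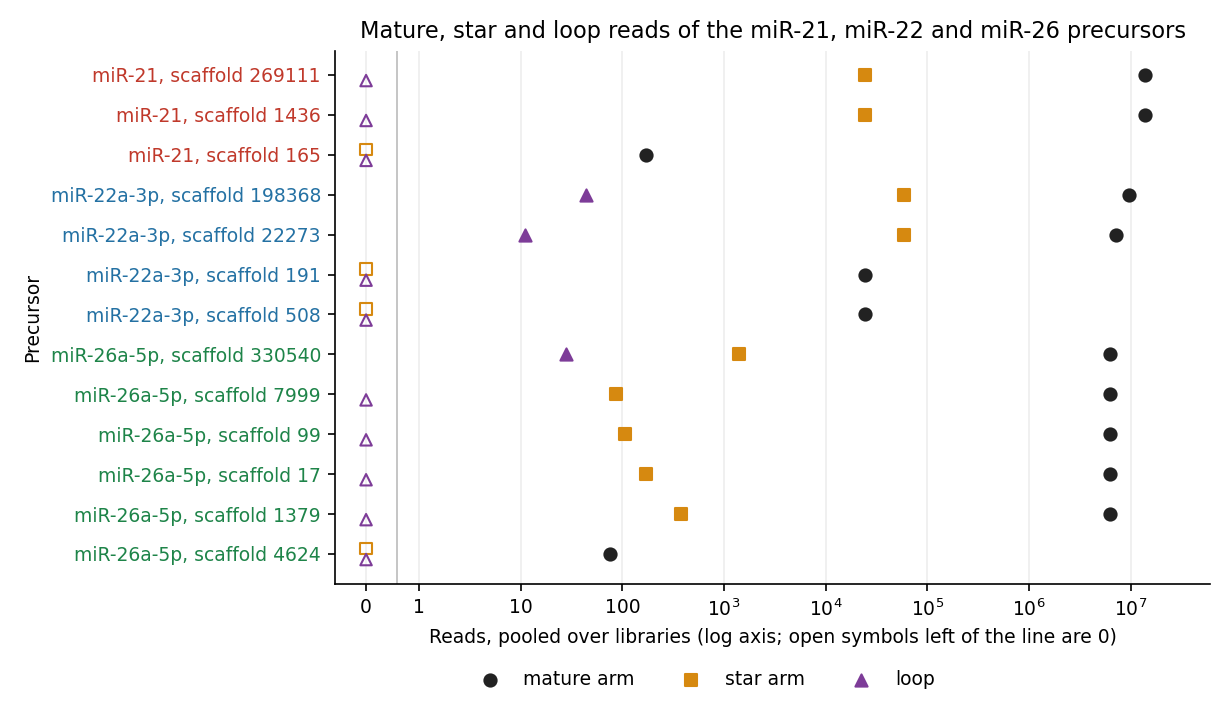
Reads of the mature arm, the star arm and the loop (log axis, pooled counts) for each of the 13 precursors, with open symbols for 0 reads. In the 9 precursors with star reads the mature arm had between 6274287 and 13911397 reads, while the other 4 had 24550 or fewer.

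The miR-21 gene was listed at 2 hairpins with star reads (called full hairpins here) that could hardly be told apart by their reads. They lie on scaffold 269111 (262 to 320, plus strand) and scaffold 1436 (71285 to 71343, minus strand), and both are 59 nt long. Both carry the same mature sequence on the 5p arm and the same 21 nt star sequence. They differ at 3 bases, all in the 16 nt loop, written in capitals here to show where copies of 1 miRNA can be separated.
miR-21, scaffold 269111: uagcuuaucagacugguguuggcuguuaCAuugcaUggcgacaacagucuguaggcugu
miR-21, scaffold 1436: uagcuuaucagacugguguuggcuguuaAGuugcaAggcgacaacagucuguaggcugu
Counted from the first loop base, the substitutions from the first hairpin to the second were C7A, A8G and U14A. The first hairpin had 13911397 mature and 24541 star reads, and the second had 13838551 mature and 24488 star reads. The mature counts thus differed by 72846 reads, 0.524% of the higher count, and the star counts by 53 reads, 0.216%. The cause of these small differences was not tested. The star arm made up 0.176% of mature plus star reads at the first hairpin (exact binomial 95% interval 0.174% to 0.178%) and 0.177% at the second (0.174% to 0.179%). Both hairpins had 0 loop reads, which allows a share of up to 2.15e-05% and 2.16e-05% of their reads. The loop is the only part where they differ, so the list does not show how the reads divide between the hairpins. Whether they are separate genes or 1 locus listed on 2 scaffolds was not tested. This also holds for the miR-22 and miR-26 hairpins below.

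The miR-22 gene was also listed at 2 full hairpins, and here the mature sequences differ in the last base. They lie on scaffold 198368 (479 to 541, plus strand) and scaffold 22273 (86 to 148, plus strand), both 63 nt long, with the mature sequence on the 3p arm. The hairpins differ at 4 bases, in capitals below, of which 3 lie in the 20 nt loop and 1 is the last mature base.
miR-22a-3p, scaffold 198368: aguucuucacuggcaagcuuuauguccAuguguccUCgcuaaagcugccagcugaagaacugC
miR-22a-3p, scaffold 22273: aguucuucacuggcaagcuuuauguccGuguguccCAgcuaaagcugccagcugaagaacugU
From the first to the second, the mature sequence has C22U, and the loop has A7G, U15C and C16A. The first had 9529100 mature reads and the second 7237252, which is 24.1% fewer, a ratio of 1.32. Their identical 21 nt star arms had 58879 reads each. A read that stops before base 22 matches both, so the summed 16766352 mature reads of the pair can hold reads counted at each hairpin, and the true ratio is not known from the list.

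The star share of miR-22 was 0.614% at the hairpin ending in C (0.609% to 0.619%) and 0.807% at the one ending in U (0.801% to 0.814%). With equal star counts, this difference comes from the mature counts alone. The star arms are identical, so the same star reads can be counted in full at both hairpins. Neither share is therefore known to belong to a single hairpin, and the intervals do not cover this. Star reads could not separate the pair, while the loops differ in sequence and in reads. The hairpin on scaffold 198368 had 44 loop reads (exact Poisson 95% interval 32.0 to 59.1), or 4.59 per 1000000 of its reads. The hairpin on scaffold 22273 had 11 (5.49 to 19.7), or 1.51 per 1000000. The intervals do not overlap, but they cover counting error only. The rates per 1000000 use totals that can hold reads counted at both hairpins.

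The miR-26 family had the most copies, 5 full hairpins with 1 mature sequence on the 5p arm and 5 different star sequences. They lie on scaffold 330540 (181 to 242, minus strand), scaffold 7999 (3369 to 3426, plus strand), scaffold 99 (39084 to 39144, minus strand), scaffold 17 (721111 to 721171, minus strand) and scaffold 1379 (43 to 103, minus strand). Their lengths were 62, 58, 61, 61 and 61 nt and their loops 18, 14, 17, 17 and 17 nt. The 5 star sequences are shown with every position at which any of them differ in capitals, since the star arm is where reads of the copies come apart.
miR-26 star, scaffold 330540: ccuauucGGgauGacuugGUUC
miR-26 star, scaffold 7999: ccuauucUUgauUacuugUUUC
miR-26 star, scaffold 99: ccuauucAUgauUacuugCACU
miR-26 star, scaffold 17: ccuauucUUgauUacuugCUCU
miR-26 star, scaffold 1379: ccuauucUCgauUacuugUUUC
Of 22 star positions, 15 were the same at all 5 loci and 7 varied, while all 22 mature positions were the same. The first 7 star bases did not vary, and the variable positions were 8, 9, 13 and 19 to 22.

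The mature reads of the 5 miR-26 hairpins were nearly equal and their star reads were not. The mature counts were 6306190 on scaffold 330540, 6287929 on scaffold 7999, 6286901 on scaffold 99, 6282507 on scaffold 17 and 6274287 on scaffold 1379. The highest and lowest differed by 31903 reads or 0.506%, and the mature sequence cannot separate the loci. The star counts in the same order were 1395, 86, 106, 172 and 375. Scaffold 330540 held 65.4% of the 2134 star reads (exact binomial 95% interval 63.3% to 67.4%), and its count was 16.2 times that of scaffold 7999.

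In order of star reads, scaffold 330540 (exact Poisson 95% interval 1323 to 1470) stood above scaffold 1379 (338 to 415), and that above scaffold 17 (147 to 200). Scaffolds 99 (86.8 to 128) and 7999 (68.8 to 106) came last, and their intervals overlap. The stars on scaffolds 7999 and 1379 differ by a single base, U9C, and their reads by 4.36 times. The stars on scaffolds 7999 and 17 share their first 18 bases and differ by U19C, U21C and C22U, so short reads could count at both. The star on scaffold 330540 differs from the other 4 at 4 to 7 bases and shares no run of more than 7 identical bases at the same positions with any of them.

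**Figure D2:**
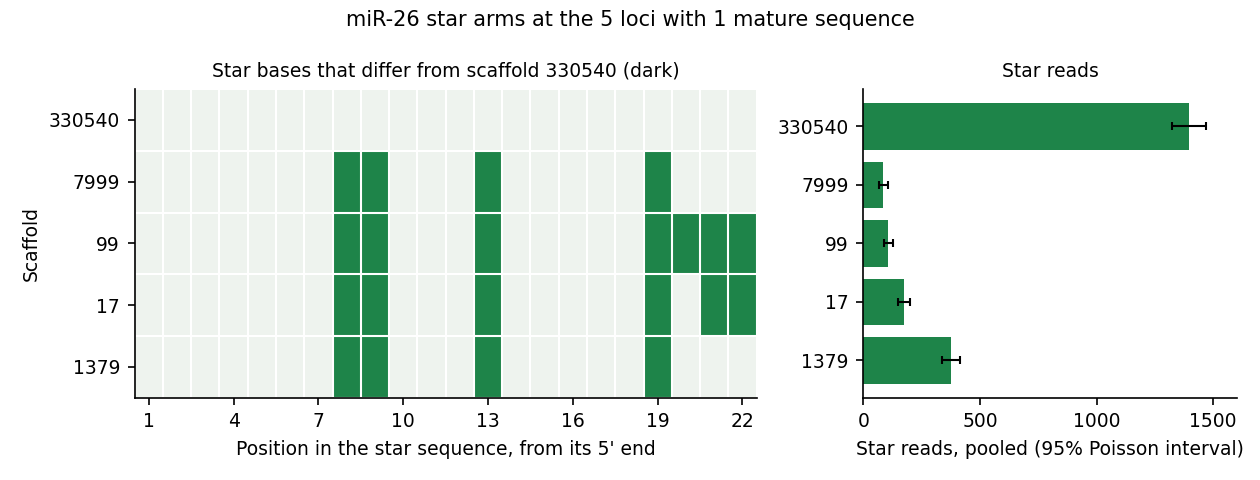
Left, positions in the miR-26 star sequence (from the 5′ end) at which each locus differs from the star on scaffold 330540 (dark). Right, pooled star reads per locus with exact Poisson 95% intervals for counting error; scaffold 330540 had 1395 reads and the others 86 to 375.

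Because star position 8 varies, the miR-26 star arms carry 3 seeds. The seed CUAUUCG on scaffold 330540 had 1395 star reads. The seed CUAUUCU, shared by scaffolds 7999, 17 and 1379, had 633 star reads or 29.7%. The seed CUAUUCA on scaffold 99 had 106 or 4.97%. At each locus the star arm was a small part of the listed reads. Its share was 0.0221% on scaffold 330540 (0.0210% to 0.0233%), 0.00598% on scaffold 1379 and 0.00274% on scaffold 17. It was 0.00169% on scaffold 99 and 0.00137% on scaffold 7999 (0.00109% to 0.00169%). Each share sets the star reads of 1 locus against mature reads that can be listed at all 5. The 5 loci together had 2134 star reads against 6306190 mature reads at the highest count, so a share per locus understates that of the family.

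Loop reads of miR-26 were listed at the same hairpin that had the most star reads. Scaffold 330540 had 28 loop reads (exact Poisson 95% interval 18.6 to 40.5), or 4.44 per 1000000 of its reads. Each of the other 4 had 0, which allows up to 3 reads, at nearly the same mature count. The mature counts, and the total behind the rate per 1000000, can hold the same reads at each of these hairpins. Taken over the list, loop reads were found in 85 of 820 precursors (10.4%), and in 20 of the 46 precursors with at least 1000000 reads, where 26 had 0.

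Uneven star reads between entries with the same mature sequence were found beyond miR-26. The list held 104 mature sequences with several entries. Some of these entries overlap on the same scaffold, so not every entry is a separate copy. For 37 of them the star sequences differed and each entry had star reads, and the highest star count was a median of 5 times the lowest. It was over 10 times in 13 of the 37, and miR-26 with its 16.2 is 1 of these. Where the star sequences were the same and each entry had star reads, as for miR-21, 18 of 20 mature sequences had star counts within 1% of each other. A read of a shared star sequence can be counted at each of these entries. Near-equal counts there say nothing about how the copies differ. Only 4 mature sequences were listed at 5 entries, and none at more. Whether the mapping allowed a read at more places is not given, so this need not be the largest number of copies. Among the 4, the miR-26 sequence and a let-7 sequence are the pair with 5 different stars.

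Set against other precursors, the star shares of the 3 families lay in different parts of the range. The list held 234 precursors whose mature and star reads summed to 1000 or more, and among these the median star share was 0.188% (quartiles 0.00802% and 2.49%). Lower star shares than at the miR-22 hairpins on scaffolds 198368 and 22273 were found in 140 and 147 of the 234, so these lay above the median. For the miR-21 hairpins the numbers were 112 and 114, close to the middle. For the 5 miR-26 hairpins they ran from 41 to 72, in the lower part. Where copies share a mature or star sequence, the same reads can stand at several hairpins. These places therefore describe listed counts, not single genes. For miR-26 a share sets star reads of 1 hairpin against mature reads that can be listed at all 5, which lowers the miR-26 places. Among the 46 precursors with at least 1000000 reads, where the median was 0.0207%, only 12 had a star share over 0.1%, and the miR-21 and miR-22 hairpins are 4 of these.

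**Figure D3:**
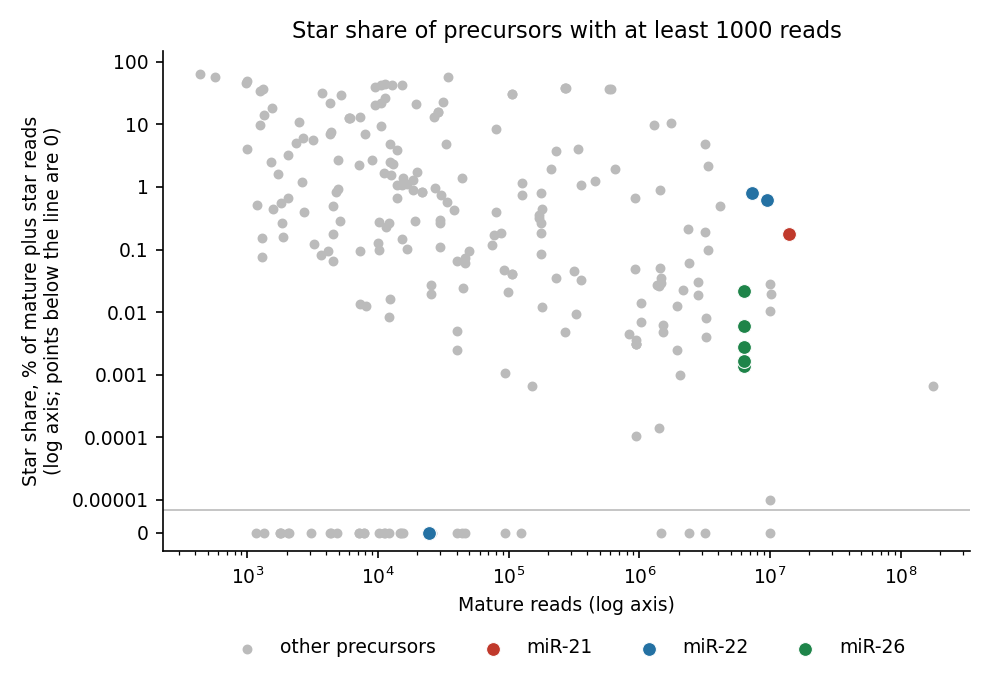
Star share (percent of mature plus star reads, log axis, 0 drawn below the line) against mature reads (log axis) for the 234 precursors that reached 1000 reads; each point is a precursor. At similar read counts the full miR-22 hairpins lie at 0.614% and 0.807%, and the full miR-21 hairpins at 0.176% and 0.177%. The full miR-26 hairpins lie between 0.00137% and 0.0221%. The miR-22 entries on scaffolds 191 and 508, with 24550 mature reads each, are drawn at 0. Copies with a shared sequence can list the same reads.

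The remaining 4 entries carry the seed of one of the families but had 0 star reads, 0 loop reads and scores of 0.6 to 1.8 in miRDeep2, the prediction program. In the whole list 292 of 820 entries (35.6%) had 0 star reads, and the highest score among them was 3.9. The other 9 all scored 3198983.5 or more and were 9 of the 12 highest-scoring entries. Among these 9 the scores keep the order of the total reads. The families were chosen by their read counts, so the high scores are not a separate result. The precursors of the low-scoring 4 are shown with the mature sequence in capitals, to show on which arm it lies.
miR-22a-3p, scaffold 191: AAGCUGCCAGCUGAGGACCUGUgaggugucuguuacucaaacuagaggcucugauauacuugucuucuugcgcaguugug
miR-22a-3p, scaffold 508: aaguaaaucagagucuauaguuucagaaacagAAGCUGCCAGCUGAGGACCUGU
miR-21, scaffold 165: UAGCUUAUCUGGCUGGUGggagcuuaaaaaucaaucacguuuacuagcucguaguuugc
miR-26a-5p, scaffold 4624: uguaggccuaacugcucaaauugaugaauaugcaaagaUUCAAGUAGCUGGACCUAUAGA
They lie on scaffold 191 (209458 to 209537, plus strand), scaffold 508 (30393 to 30446, minus strand), scaffold 165 (363398 to 363456, plus strand) and scaffold 4624 (34663 to 34722, minus strand).

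The miR-22 entries on scaffolds 191 and 508 list the same mature sequence with the same 24550 reads, on the 5p arm in one and on the 3p arm in the other. The arm differed between entries for 30 of the 104 mature sequences with several entries, this one included. The sequence differs from the miR-22a-3p sequence ending in U by A15G and A18C, and from the one ending in C by these and C22U. The precursors are 80 and 54 nt long with loops of 37 and 7 nt. With 24550 mature reads and 0 star reads, a star share of up to 0.0122% is allowed, which is below the shares of the full miR-22 hairpins. Star reads were 0 in 34 (14.5%) of the 234 precursors that reached 1000 mature and star reads.

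The miR-21 precursor on scaffold 165 is 59 nt long, and its 18 nt mature sequence differs from the leading sequence by A10U and A12G over those 18 bases. It had 171 reads, 0.00123% of the miR-21 reads, and a star share of up to 1.75% is allowed. The miR-26 entry on scaffold 4624 keeps the seed but differs from the leading sequence at 12 of 22 bases, and its mature sequence lies on the 3p arm. It had 75 reads, 0.00119% of the miR-26 reads, and allows a star share of up to 4%. Names in the list stand for a shared seed, so these entries are not shown to be members of the families.

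Each precursor was also folded with RNAfold, which gives the minimum free energy of the most stable predicted fold. The 9 hairpins with star reads had -29.4 to -23.6 kcal/mol. The 4 without had -23.7 kcal/mol on scaffold 191, -16.5 on scaffold 4624, -11.5 on scaffold 508 and -11.3 on scaffold 165, so the groups touched only at the 80 nt precursor of scaffold 191. Per base the 9 ran from -0.498 to -0.387 kcal/mol and the 4 from -0.296 to -0.192, without overlap, and the median of all 820 was -0.398. Over the whole list the medians hardly differed, at -24.3 kcal/mol and 17 mature bases paired with the star arm for entries with star reads, and -24.0 kcal/mol and 16 bases for those without. miRDeep2 judges the read pattern and the stability of the hairpin, so energy is not independent of the score.

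In the predicted folds, 19 of 22 mature bases paired with the star arm at each miR-21 and miR-22 full hairpin, more than in 85.9% of all precursors by share of the mature sequence. At the 5 miR-26 hairpins 16 or 17 did so, near the list's median of 76.2%. The miR-26 hairpin on scaffold 99 had the 16 and the highest energy of the 5, -23.6 kcal/mol, and the one on scaffold 1379 the lowest, -29.4. Scaffold 330540, with the most star reads, had 17 paired bases and -24.9 kcal/mol. The miR-22 entries on scaffolds 191 and 508 had 14 paired bases each. On scaffold 165, 2 of the 18 mature bases paired with the listed star and 10 paired with each other, so that fold is not a hairpin with the mature sequence in its stem. The miR-26 entry on scaffold 4624 had 16 paired bases, as many as a full miR-26 hairpin, at -16.5 kcal/mol.

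**Figure D4:**
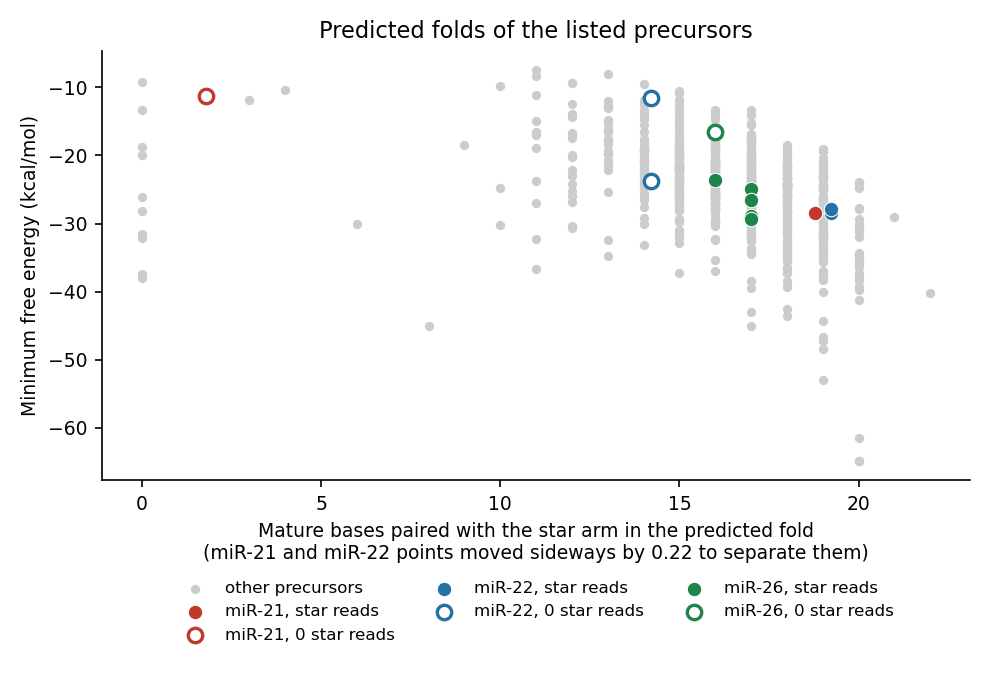
Minimum free energy (kcal/mol) against the number of mature bases paired with the star arm in the predicted fold, for all 820 precursors (grey) and the 13 of miR-21, miR-22 and miR-26 (filled with star reads, open without). The filled points lie at 16 to 19 paired bases and below -23 kcal/mol, and the open ones reach 2 paired bases and -11.3 kcal/mol.

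None of the 13 precursors had another listed precursor within 10 kb on its scaffold. In the whole list 228 of 820 (27.8%) had one, and 151 of the 311 entries with a zebrafish seed match (48.6%). Overlapping predictions of the same locus count as neighbours here, so both shares are upper values for separate neighbours. Several of the 13 start within 10 kb of the beginning of their scaffold, at bases 43, 86, 181, 262, 479 and 3369. A neighbour beyond the scaffold's edge could not have been seen. Scaffold lengths were not known, so the far end could limit the search for any of the 13. No annotation of this assembly was used, so the genes around the hairpins are not stated.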

How the data were processed

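Liver small RNA libraries of 12 eels, 6 per site, had been sequenced. A tool listed in the submitters' processing notes is bcl2fastq 2.17.1.14. Per the file headers, precursors were predicted with miRDeep2. The authors deposited mature, star, loop and total read counts per precursor without normalization, and the miRDeep2 score. For the aligner, build, mismatches and miRDeep2 version, nothing is given in the sources used here. No column names a library, so depth per library is unknown, the planned count test between sites was not run, and there are no p-values.

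Listed starts count from 0, so 1 was added. Identical mature sequences were counted once, at their highest count, in read shares. Intervals are exact (binomial or Poisson, 95%). A count of 0 is taken to allow 3 reads, which is below the exact Poisson upper limit of 3.69. Without molecular identifiers the intervals and this limit cover counting error only. Precursors were folded with RNAfold 2.7.2 at default settings; Python 3.11.15, pandas 2.3.3 and scipy 1.17.1 were used. Functions were tested on simulated data. All entries passing the name rule are described. The members, the cell type lists and the comparisons were chosen with earlier results of these data known. Alternatives covered copies, end variants, read columns, score and star filters.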

Additional observations from a re-analysis of the deposited data

How the results depend on the processing

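Of 36 alternatives over 9 results, 16 gave the same value or one within its interval (for counts of loci, within 1.5 times) and 20 moved it. The intervals are narrow, so small shifts count. Several alternatives could hardly move a value, such as a score filter on the star shares of hairpins with very high scores. The 16 are therefore not a measure of stability. The shares of miR-21, miR-22 and miR-26 in mature reads were 5.10%, 6.16% and 2.31%. In that order they were 7.15%, 4.33% and 8.10% with reads summed over all entries, 5.08%, 6.17% and 2.30% with total reads, and 14.5%, 17.5% and 6.57% outside miR-122. At a score of at least 10 they were 15.03%, 18.11% and 6.81%, and at least 4 gave 15.03%, 18.11% and 6.81% again; these filters remove the miR-122 precursor. End variants counted once moved miR-22 to 3.60%, with the lower count also left out of the list's total. For miR-21 and miR-26 that total was not changed, so their unmoved shares under this setting are not a result. Star shares summed over entries were 0.695% for miR-22 (main value 0.614%) and 0.00679% for miR-26 (0.0221%). Such sums can count reads listed at several entries more than once. The 4 miR-22 loci became 2 at a score of at least 10 and 2 with at least 1 star read. Under each of these filters the 3 miR-21 loci became 2 and the 6 miR-26 loci became 5, which counts as the same within 1.5 times. Choosing entries by seed changed none of the 3 counts of loci, which largely follows from the name rule, since listed names go by the seed. No paired analysis was possible because no counts per eel are in the list. Star counts under about 100, as for miR-26 on scaffold 7999, limit how finely loci can be ordered.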
